A study of Mus musculus with 4 samples.

Results

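Cytosolic sulfotransferases and the enzymes that make their sulfate donor were followed in mouse liver. The set was a list of 10 gene symbols, of 8 sulfotransferases and 2 PAPS synthases, read from a table of 22849 gene symbols. Of the 10, 8 had a row under the listed symbol. Sult2a8 was listed under its older symbol 2810007J24Rik, which RefSeq gives as a synonym. Sult1a1 had no row of its own and shared a single row with Eif3c, so 9 genes could be read singly and 8 of them passed the filter on low values.

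All mice were male C57BL/6 on a high fat diet (60% fat) for 12 weeks. The Vehicle group ate that diet alone, and the UAB126 group ate it with 1.2 g of UAB126 in each kg. This compound is known here only by its code. Each group had 2 liver libraries, numbered 1 and 2, with no statement that they came from separate animals, so p-values measure only the spread among these libraries, which may be technical. The sources used here do not give the age of the mice. The question was which liver transcripts differ when the compound is added to the diet.

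Cytosolic sulfotransferases move a sulfonate group from PAPS (3′-phosphoadenosine 5′-phosphosulfate) onto hydroxyl or amino groups of phenols, steroids, bile acids, catecholamines and many drugs. The products are more soluble in water and are often less active at receptors. PAPS is made from ATP and inorganic sulfate by the bifunctional enzymes PAPSS1 and PAPSS2, which join an ATP sulfurylase and an APS kinase in a single protein. Liver is the main organ of this conjugation, and in mice several Sult genes are known to be more active in females than in males.

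Levels are given as FPKM, fragments per kilobase of transcript relative to all mapped fragments, which are scaled by length and can therefore be compared between genes. Read from the steps between low values, the relative depth was 0.691 and 0.404 in Vehicle 1 and 2 and 0.703 in UAB126 2, with UAB126 1 taken as 1. By this reading, which rests on how the libraries were scaled, Vehicle 2 was the shallowest library, and the absolute depth is unknown. The hepatocyte markers Ttr and Apoa1 lay at 9453 to 44092 FPKM in all libraries, but Alb was listed at 0 in 3 of the 4. Of 10 hepatocyte markers, 6 were lower in both UAB126 libraries than in both Vehicle libraries and 2 were higher, where 26.9% of all 10786 tested symbols were lower and 22.7% higher in this sense. Without Alb, the other 9 summed to 69466 and 99844 FPKM when the compound was absent, against 38134 and 54855 FPKM when it was given. Of 7 Kupffer cell and macrophage markers, 3 were higher and 0 lower, and they summed to 39.9 and 116.5 FPKM on the diet alone against 98.0 and 109.8 FPKM under the compound. Cfd, a complement factor gene of adipocytes, was at 213.2 and 51.2 against 2.54 and 19.6 FPKM, while the adipocyte markers Adipoq, Lep, Plin1 and Retn overlapped between the groups. Alas2, a haem synthesis gene of red cells, was at 163.9 and 189.1 against 59.8 and 70.8 FPKM. Fewer cells of a type and less RNA per cell cannot be told apart in bulk liver, and the part of these shifts in the results below was not tested.

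Sult1b1 and Sult1e1, and by a small gap the donor enzyme Papss1, had lower values with UAB126, and Sult5a1 and Sult1c2 higher values. The groups overlapped in Sult1d1, in the donor enzyme Papss2 and in Sult2a8, the most abundant sulfotransferase read singly. No gene of the set passed the threshold: 0 of 8 tested genes had an adjusted p under 0.05 (limma, Benjamini-Hochberg over all 10786 tested symbols), where 0.139% of all tested symbols did, 0.0464% as higher and 0.0927% as lower with UAB126. At an unadjusted p under 0.05 there were 4 of 8, against 13.4% of all tested symbols. Both UAB126 libraries lay above both Vehicle libraries in 2 of the 8, against 22.7% of all tested symbols, and below them in 3 of 8, against 26.9%. An absolute log2 difference of at least 1 was found in 4 of 8, against 6.01% of all. The set was chosen with earlier results of these data known, and Sult1e1 passed the filter only through its Vehicle values. These counts are therefore a description, and their distance from the shares of all symbols is not evidence about the set. A log2 difference is that of log2(FPKM + 1), UAB126 minus Vehicle, with limma's moderated standard error (SE, n = 2 per group).

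**Figure D1:**
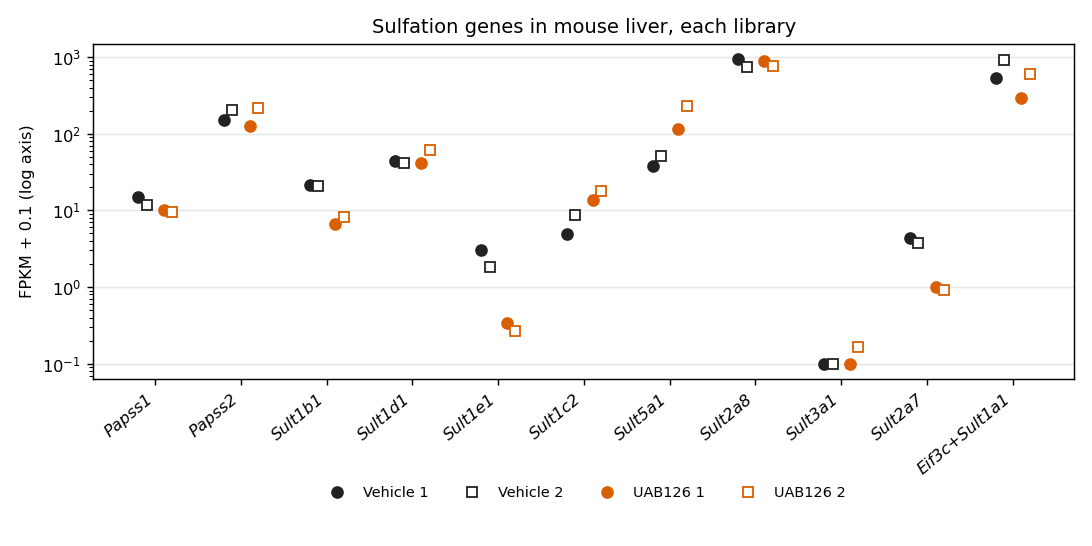
FPKM + 0.1 on a log axis for the 9 genes of the set with a row of their own, the related gene Sult2a7 and the joint row of Eif3c and Sult1a1, with a point for each library (black, Vehicle; orange, UAB126; filled circles, replicate 1; open squares, replicate 2). The Vehicle and UAB126 points separate downward in Sult1b1, Sult1e1 and Sult2a7, and by a small gap in Papss1. They separate upward in Sult1c2 and Sult5a1, while those of Sult2a8 interleave between 731.2 and 937.8 FPKM.

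The donor enzymes came in unequal amounts. Papss2 (chromosome 19, 32595790 to 32667187, plus strand, in GENCODE M21 on mm10) is the PAPS synthase known to predominate in liver. It measured 151.1 and 204.3 FPKM on the diet alone against 125.8 and 213.9 FPKM on the diet with UAB126. The UAB126 values enclose those of Vehicle, and within each group the library numbered 2 was the higher. Its log2 difference was -0.10 ± 0.34 (limma adjusted p = 0.91), with a 95% interval from -0.96 to 0.76, and its sign turned with quantile normalization (0.25). Papss1 (chromosome 3, 131564768 to 131643671, plus strand), the more widely expressed form, had 14.9 and 11.6 FPKM in the Vehicle libraries and 10.1 and 9.29 FPKM in the UAB126 libraries. All UAB126 values were below all Vehicle values, but the gap was small, with a log2 difference of -0.41 ± 0.20 (limma adjusted p = 0.421). In every library Papss2 was the higher of the pair. The deposited loci of these rows are wider than the GENCODE genes, by 149.5 kb for Papss2, where Minpp1 and Rpl9-ps6 are also covered, and by 43.97 kb for Papss1.

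Sult1b1, Sult1d1 and Sult1e1 lie side by side on the minus strand of chromosome 5, within 78.3 kb, at 87513339 to 87538195, 87554645 to 87569027 and 87575969 to 87591594 (GENCODE M21, mm10). The stretch between Sult1b1 and Sult1d1 is 16.5 kb long, and that between Sult1d1 and Sult1e1 is 6.94 kb. Their promoters are shown because both UAB126 values were below both Vehicle values in Sult1b1 and Sult1e1, while the groups overlapped in Sult1d1. None of these neighbours passed the threshold, and whether they differ from each other was not tested. The 250 bases before each start, from RefSeq's GRCm38.p6 (the mm10 assembly), read 5′ to 3′ on the gene's own strand, were searched for 10 short motifs, with matches in capitals. RefSeq's starts are not always those of GENCODE M21, and the Sult1d1 start lies 21 bases inside the gene as given here.
Sult1b1, chr5:87538196-87538445: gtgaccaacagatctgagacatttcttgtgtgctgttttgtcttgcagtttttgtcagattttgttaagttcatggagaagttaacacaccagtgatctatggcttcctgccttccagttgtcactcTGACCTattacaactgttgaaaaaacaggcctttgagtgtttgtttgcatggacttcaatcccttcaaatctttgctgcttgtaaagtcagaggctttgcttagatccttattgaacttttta
Sult1d1, chr5:87569007-87569256: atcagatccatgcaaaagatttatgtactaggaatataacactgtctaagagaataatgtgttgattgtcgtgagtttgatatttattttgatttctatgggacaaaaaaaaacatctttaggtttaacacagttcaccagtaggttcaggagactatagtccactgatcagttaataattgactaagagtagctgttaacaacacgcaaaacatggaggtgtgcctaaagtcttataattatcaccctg
Sult1e1, chr5:87591612-87591861: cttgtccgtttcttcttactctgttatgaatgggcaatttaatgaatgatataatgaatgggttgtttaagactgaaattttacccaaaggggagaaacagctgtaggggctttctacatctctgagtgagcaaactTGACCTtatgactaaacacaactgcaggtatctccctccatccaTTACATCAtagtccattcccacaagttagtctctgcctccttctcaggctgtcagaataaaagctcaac
The motifs, on both strands, were TATAAA of core promoters, TGTTTAC (forkhead), TTGCNNAA (C/EBP), AGGTCA (the core hexamer of nuclear receptors), TGATGNAA (ATF4 with C/EBP), TTCNNNGAA (STAT), ACANNNTGT (core of the glucocorticoid receptor motif), TGACNNNGC (antioxidant response element core), CACGTG (E-box) and GGGCGG (GC box). No match of one motif overlapped that of another in these windows. AGGTCA occurred, on the opposite strand, 123 bases before the Sult1b1 start and 113 bases before the Sult1e1 start, counted to the first base of the match. It occurred in 14.0% of 32817 promoter windows of the same length. TGATGNAA occurred once, 69 bases before the Sult1e1 start, and in 3.45% of all windows. None of the 10 motifs was found in the window of Sult1d1. A match is a description of the letters and not evidence of binding.

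Sult1b1 encodes the sulfotransferase known for thyroid hormones and small phenols. It showed 21.5 and 20.5 FPKM without UAB126 and 6.50 and 8.15 FPKM with it. The Vehicle libraries were close to each other and both stood well above the UAB126 libraries. The mean was 2.86-fold lower with UAB126, and the log2 difference was -1.41 ± 0.19 (limma adjusted p = 0.108). This was the smallest unadjusted p of the 8 tested genes (limma, 5.21e-04), rank 49 of 10786 symbols. Over the 14 alternatives limma's adjusted p ran from 0.0397 without Vehicle replicate 1, where 442 symbols passed in all, to 0.657 without UAB126 replicate 1, and it was 0.61 without UAB126 replicate 2. Sult1b1 is also known as a gene of the intestine, so gut markers were read beside it. Vil1, Cdh17 and Muc2 were at 0 to 0.283 FPKM in every library. Fabp2, a fatty acid binding protein gene that liver also expresses, measured 256.6 and 268.9 FPKM on the diet alone against 55.7 and 86.8 FPKM on the diet with UAB126.

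Sult1d1, the middle gene of the cluster, encodes a sulfotransferase known for catecholamines and other amines with a phenol ring. It had 44.3 and 41.0 FPKM in the Vehicle libraries and 41.3 and 62.0 FPKM in the UAB126 libraries. The groups overlap, since UAB126 1 lay between the Vehicle libraries, and UAB126 2 was the highest of the 4. Its log2 difference was 0.24 ± 0.26 (limma adjusted p = 0.669), with a 95% interval from -0.41 to 0.89. Whether the log2 difference of Sult1d1 is unlike those of Sult1b1 and Sult1e1 was not tested.

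Sult1e1 encodes the oestrogen sulfotransferase, which inactivates oestradiol and is known to be low in the liver of lean mice and induced in that of obese and diabetic ones. It showed 2.95 and 1.75 FPKM without UAB126 and 0.235 and 0.167 FPKM with it. Both UAB126 libraries were far below both Vehicle libraries, and the ratio of the means was 11.7. On the log2(FPKM + 1) scale, which understates the change of so low a gene, the difference was -1.46 ± 0.28 (limma adjusted p = 0.199), and with a pseudocount of 0.1 it was -2.99. The number of fragments behind this row can only be inferred. The smallest set of whole numbers in proportion to its values and to the depth of the libraries, within 0.1 of a whole number, was 52 and 18 fragments in Vehicle 1 and 2 and 6 and 3 fragments in UAB126 1 and 2. A common multiple of these numbers cannot be told apart from them, and the set read for Sult2a7 (below) conflicts with these numbers. If they are the counts, their exact 95% Poisson intervals, which cover counting error only, are 38.8 to 68.2, 10.7 to 28.4, 2.202 to 13.1 and 0.619 to 8.77. By the estimated relative depth UAB126 1 was the deepest library and Vehicle 2 the shallowest, while UAB126 2 (0.703) and Vehicle 1 (0.691) were nearly equal. Limma's adjusted p was 0.0498 without Vehicle replicate 1 and 0.0431 without Vehicle replicate 2, but 0.806 without UAB126 replicate 1 and 0.61 without UAB126 replicate 2. The difference was -1.09 after removal of the length trend.

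On the log2(FPKM + 1) scale Sult5a1 had the largest difference of the set, while by the ratio of the means, and with a pseudocount of 0.5 (-1.99 against 1.87) or 0.1, that of Sult1e1 was larger. Sult5a1 is a mouse sulfotransferase whose substrates are little known, on the minus strand of chromosome 8 (123140192 to 123158315). Its promoter is shown as that of the gene with the largest difference among those with higher values, with a GC box in capitals 55 bases before the RefSeq start, a motif found in 32.7% of all windows. That start lies 35 bases inside the GENCODE gene.
Sult5a1, chr8:123158281-123158530: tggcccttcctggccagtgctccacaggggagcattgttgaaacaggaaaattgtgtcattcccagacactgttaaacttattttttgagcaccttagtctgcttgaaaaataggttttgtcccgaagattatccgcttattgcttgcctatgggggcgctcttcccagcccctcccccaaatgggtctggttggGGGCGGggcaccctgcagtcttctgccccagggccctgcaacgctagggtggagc
It measured 38.2 and 51.7 FPKM on the diet alone against 115.5 and 231.5 FPKM on the diet with UAB126. The UAB126 values both exceeded those of Vehicle, but they differed from each other by more than the Vehicle libraries did. The mean was 3.86-fold higher with UAB126, and the log2 difference was 1.86 ± 0.38 (limma adjusted p = 0.214). It stayed between 1.36 and 2.35 over 14 alternatives. Of the 4555 windows of 75 bases in its transcripts, the length of a read, 3 also occur in a transcript of another gene. The row's deposited locus also overlaps Gm20388, a gene annotated as protein-coding.

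Sult1c2 encodes a phenol sulfotransferase and lies on the minus strand of chromosome 17 (53829637 to 53846339). Its promoter window, shown beside that of the other gene with higher values, held none of the 10 motifs. The window precedes RefSeq's start at 53845958, which is also where the deposited row's locus ends and lies 381 bases inside the GENCODE gene, so the printed bases fall within that gene's span.
Sult1c2, chr17:53845959-53846208: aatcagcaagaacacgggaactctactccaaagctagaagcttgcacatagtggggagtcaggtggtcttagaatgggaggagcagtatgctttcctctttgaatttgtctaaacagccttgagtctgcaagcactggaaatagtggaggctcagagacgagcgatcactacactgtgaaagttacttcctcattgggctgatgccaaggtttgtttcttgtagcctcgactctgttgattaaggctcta
It had 4.76 and 8.65 FPKM in the Vehicle libraries and 13.7 and 18.0 FPKM in the UAB126 libraries. The groups did not overlap, and the mean was 2.36-fold higher with UAB126. The log2 difference was 1.16 ± 0.30 (limma adjusted p = 0.27), and it ran from 0.79 without Vehicle replicate 1 to 1.53 without Vehicle replicate 2.

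Sult2a8, on the minus strand of chromosome 7 (14410686 to 14446769), encodes a liver enzyme known to sulfonate bile acids at a hydroxyl of the steroid ring. It was by far the most abundant sulfotransferase row that could be read singly, with 937.8 and 731.2 FPKM in the Vehicle libraries and 899.6 and 771.3 FPKM in the UAB126 libraries. The row's deposited locus, 14067554 to 14446587, is 343 kb wider than the GENCODE gene and also covers Sult2a3, Sult2a6 and Obox8. Each UAB126 value lay between the Vehicle values. The log2 difference was 0.01 ± 0.28 (limma adjusted p = 0.992), with a 95% interval from -0.70 to 0.72. After quantile normalization it was 0.50, and without Vehicle replicate 2 its sign turned (-0.17).

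Sult1a1 encodes the main phenol sulfotransferase. Its joint row with Eif3c, a translation initiation factor gene, showed 532.8 and 915.9 FPKM without UAB126 and 290.5 and 601.9 FPKM with it. The groups overlap, the log2 difference was -0.74 ± 0.46 (limma adjusted p = 0.492), and no share of this row can be assigned to Sult1a1. A separate row named Eif3c alone measured 42.3 and 37.5 FPKM on the diet alone against 71.9 and 59.5 FPKM on the diet with UAB126. The deposited locus of the row named Eif3c alone, 126526419 to 126717470, covers both genes and 8 other protein-coding genes. In GENCODE M21 the genes are apart, with Sult1a1 at 126672865 to 126676432 and Eif3c at 126546455 to 126566411 of chromosome 7. Sult3a1, an amine sulfotransferase of chromosome 10 known to be expressed mainly in female liver, was listed at 0 in both Vehicle libraries and in UAB126 1 and was at 0.066 FPKM in UAB126 2.

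**Figure D2:**
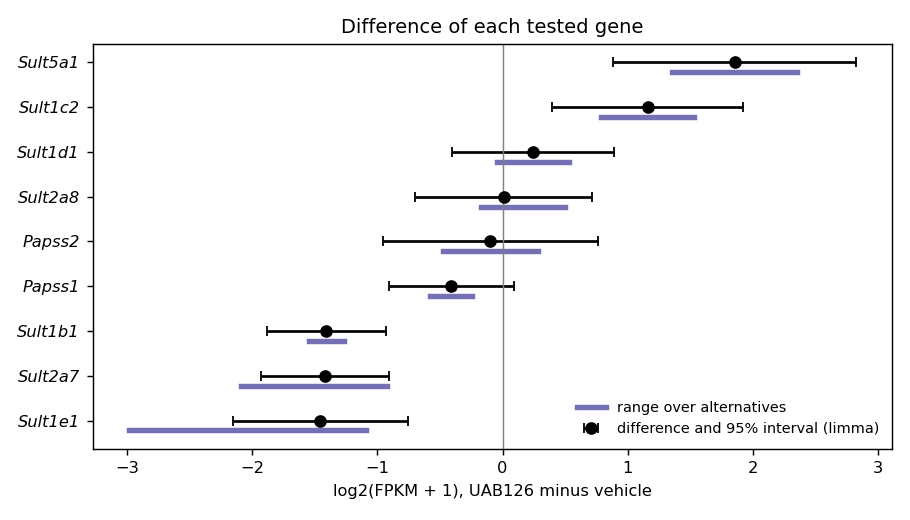
Difference in log2(FPKM + 1), UAB126 minus Vehicle, for the 8 tested genes of the set and Sult2a7. Points and black bars are limma's estimate with its 95% interval, and purple bars are the range over the alternatives. The intervals of Sult1b1, Sult1e1 and Sult2a7 lie below 0 and those of Sult1c2 and Sult5a1 above it, although none passed after adjustment over all symbols.

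The order of the genes by FPKM differed between the groups. In Vehicle, among those read singly and after Sult2a8, Sult5a1 and Sult1d1 could not be separated by their ranges, and Sult1b1 followed, above Sult1c2 and Sult1e1. With UAB126, Sult5a1 stood above Sult1d1 in both libraries, and Sult1c2 stood above Sult1b1. Summed over the 7 sulfotransferases read singly, the level came to 1049 and 854.7 FPKM without the compound and to 1077 and 1091 FPKM with it. The ratio of the means was 1.14, and an exact permutation test of 2 against 2 libraries cannot go below p = 0.333. Sult2a8 made up 89.4% and 85.5% of that sum in Vehicle and 83.5% and 70.7% with UAB126. Without Sult2a8 the Vehicle libraries summed to 111.7 and 123.6 FPKM and the UAB126 libraries to 177.3 and 319.8 FPKM, a ratio of 2.11. In that remainder Sult5a1 held 34.2% and 41.8% in Vehicle and 65.2% and 72.4% with UAB126, and Sult1b1 held 19.2% and 16.6% against 3.67% and 2.55%.

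**Figure D3:**
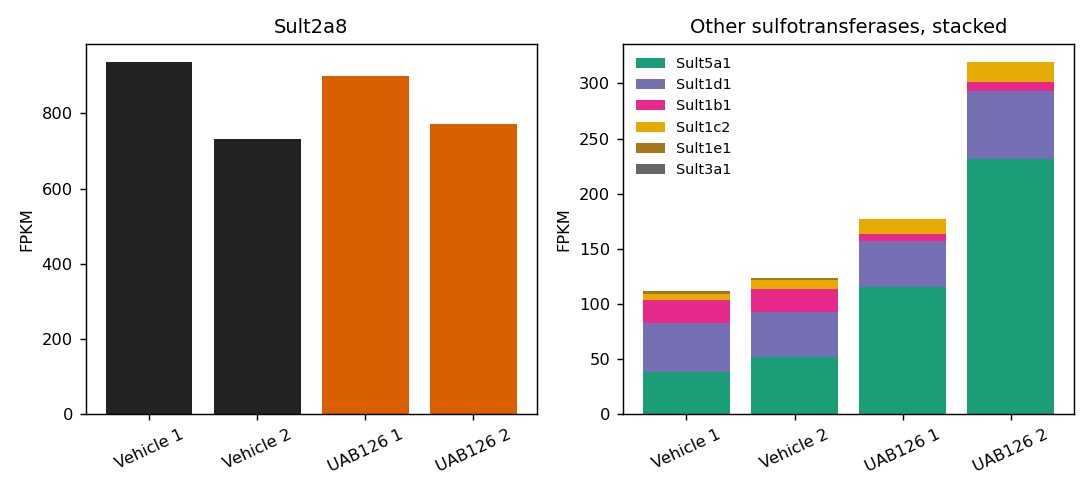
FPKM of Sult2a8 (left) and of the other 6 sulfotransferases with a row of their own, stacked (right), in each of the 4 libraries. Sult2a8 is at 731.2 to 937.8 FPKM throughout, while the stacked remainder stands at 111.7 and 123.6 FPKM on the diet alone and reaches 177.3 and 319.8 FPKM under the compound, of which the most is Sult5a1.

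Among 13 other cytosolic sulfotransferase genes, 8 were listed at 0 in every library, and Sult2a2, Sult2a3, Sult2b1 and Sult4a1 did not exceed 0.271 FPKM in any. The remaining gene, Sult2a7, a member of the hydroxysteroid family, lies 18.3 kb from Sult2a8 (chromosome 7, 14465051 to 14494230). It had 4.22 and 3.68 FPKM in the Vehicle libraries and 0.892 and 0.808 FPKM in the UAB126 libraries. Both groups were tight and did not overlap, the mean was 4.65-fold lower with UAB126, and the log2 difference was -1.42 ± 0.20 (limma adjusted p = 0.125). Limma's adjusted p was 0.0292 without Vehicle replicate 1, but 0.619 without UAB126 replicate 1 and 0.61 without UAB126 replicate 2. The difference was -0.93 when the length trend was removed, and like Sult1e1 it passed the filter only through its Vehicle values. By the same whole-number reading the smallest set in proportion was 108 and 55 in Vehicle and 33 and 21 with UAB126. A fragment would then be worth less FPKM than in the Sult1e1 set. The longest Sult2a7 transcript is, however, the shorter (942 against 1242 bases), so these numbers are not taken as counts. Which of the conflicting sets is off cannot be told, so the Sult1e1 numbers may not be counts either. No 75-base window of Sult2a7 occurs in a transcript of another gene, and of the 3326 windows of Sult2a8, 8 do, none of them in Sult2a7.

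The genes that carry PAPS and clear its by-product PAP had no member past the threshold (0 of 4 tested, limma, and 0 at an unadjusted p under 0.05). Over all 10786 tested symbols these shares were 0.139% and 13.4% (limma), so counts of 0 among 4 genes say little. The median log2 difference of the 4 genes was 0.01, against -0.03 over all tested symbols. Slc35b2, the PAPS transporter of the Golgi, showed 25.6 and 26.7 FPKM without UAB126 and 16.7 and 20.2 FPKM with it. The groups did not overlap, and the log2 difference was -0.48 ± 0.19 (limma unadjusted p = 0.0505, limma adjusted p = 0.373). Bpnt2, a phosphatase that clears PAP in the Golgi, was at 7.08 and 6.83 against 8.13 and 7.84 FPKM. Bpnt1, which does so in the cytosol, was at 46.6 and 42.6 against 45.9 and 51.4 FPKM, with overlapping groups.

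Sulfate reaches hepatocytes by transport and is made there from cysteine. Of 14 genes of these steps, 11 were tested and 0 passed (limma, 1 at an unadjusted p under 0.05). Both UAB126 libraries were lower in 5 of the 11 and higher in 1, against 26.9% and 22.7% of all tested symbols, and 13.4% of those had an unadjusted p under 0.05. The median log2 difference was -0.18. Mpst, the mercaptopyruvate sulfurtransferase, measured 154.3 and 151.3 FPKM on the diet alone against 85.9 and 92.1 FPKM on the diet with UAB126, a log2 difference of -0.77 ± 0.20 (limma adjusted p = 0.27). Ethe1, a sulfur dioxygenase, and Cth, which makes cysteine, had log2 differences of -0.71 ± 0.31 and -0.52 ± 0.30. The gene that was higher, Slc26a1, a sulfate transporter, was at 63.2 and 58.7 against 87.9 and 77.5 FPKM. Cdo1, the cysteine dioxygenase, and Suox, the sulfite oxidase that makes sulfate, overlapped between the groups.

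Of 14 transcription factors known to act on Sult genes, 12 were tested and 0 passed (limma). At an unadjusted p under 0.05 there was 1, Ahr, against 13.4% of all tested symbols (limma). Both UAB126 libraries were higher in 4 and lower in 2 of the 12, against the same 22.7% and 26.9%, and the median log2 difference was 0.03. Ahr, the aryl hydrocarbon receptor, was at 3.99 and 3.40 against 9.85 and 7.87 FPKM (1.07 ± 0.20, limma adjusted p = 0.191). Hnf4a, a regulator of hepatocyte identity, was at 123.0 and 121.3 against 160.7 and 176.6 FPKM. Nfe2l2, which encodes the oxidative stress regulator NRF2, was at 49.8 and 45.1 against 37.7 and 31.2 FPKM (-0.46 ± 0.20, limma adjusted p = 0.403). The xenobiotic receptor Nr1i2 and the bile acid receptor Nr1h4 had log2 differences of -0.04 ± 0.27 and -0.03 ± 0.20, with overlapping groups. Nr1i3, the receptor CAR, had only a joint row with Apoa2 and is not read here.

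**Figure D4:**
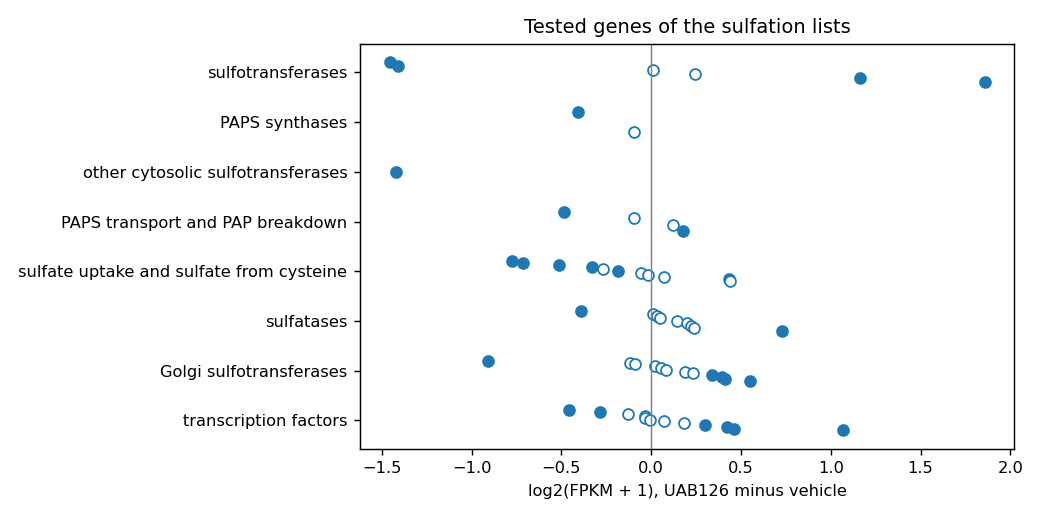
Difference in log2(FPKM + 1), UAB126 minus Vehicle, of every tested gene in the sulfation lists, a point per gene (filled, groups do not overlap; open, groups overlap). The sulfotransferases of the set spread from -1.46 to 1.86, the transcription factors from -0.46 to 1.07 and the Golgi sulfotransferases from -0.91 to 0.55. The genes of sulfate uptake and synthesis spread from -0.77 to 0.44, the sulfatases from -0.39 to 0.73 and PAPS transport and PAP breakdown from -0.48 to 0.17. The set was chosen with earlier results of these data known, so its spread beside the other lists is a description.

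For the pair of tested genes with the largest absolute difference in log2(FPKM + 1), the genes with the most alike profile over the 4 libraries were sought, by the root mean square distance between deviations of log2(FPKM + 1) from each gene's mean. For Sult5a1 they were Slc3a2, a subunit of amino acid transporters (distance 0.08), Tsku, a secreted protein (0.16), and Lpin1, a phosphatidate phosphatase (0.16). Slc3a2 showed 16.3 and 21.2 FPKM without UAB126 and 52.9 and 90.7 FPKM with it. For Sult1e1 they were Id2, a transcriptional inhibitor (0.05), Aatk, a kinase (0.08), and Col5a3, a collagen chain (0.11). Id2 was at 265.3 and 184.4 against 76.3 and 78.5 FPKM. These distances are on a scale that compresses the low values of Sult1e1: by the ratio of the means Sult1e1 was 11.7-fold lower, Id2 2.904-fold, Aatk 5.27-fold and Col5a3 3.51-fold. With 4 libraries in 2 groups such likeness is a description and nothing more.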

How the data were processed

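Liver RNA was measured by paired-end RNA sequencing in 4 libraries, 2 per group. The authors deposited 1 table of FPKM values with a column per library. They named, per the submitters' processing notes, Cuffdiff, Cufflinks 2.2.1, STAR 2.5.1b and Trim Galore 0.4.1, with the build mm10; no source used here gives their settings or the gene annotation. Because FPKM are not counts, no count test was run.

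Of 27216 rows, 3634 had no symbol and were left out, and rows of the same symbol were summed. Symbols whose mean reached 1 FPKM (10786) were fitted as log2(FPKM + 1) with limma 3.58.1 in R 4.3.3 (group as the only term, eBayes with trend, two-sided, Benjamini-Hochberg, threshold 0.05). The fit was also run on values simulated from its own variances, with larger log2 differences than those of the members. That run cannot show how well the fit suits these data. Other values came from Python 3.11.15 with pandas 2.3.3 and numpy 2.4.6. Positions and lengths are from GENCODE M21, promoters and synonyms from RefSeq (GRCm38.p6). The members and lists were chosen with earlier results of these data known. All members were named, as were up to 3 genes per related list that had the largest difference among those with groups that did not overlap, and the 3 genes most alike to each of the 2 members with the largest difference in log2(FPKM + 1). Other genes named beside them (Slc26a1, Bpnt1, Cdo1, Suox, Nr1i2, Nr1h4, the low Sult2 and Sult4 genes and the markers) were added for their role, after their values were seen. A gene of the transcription factor list is not reported here and was left out of that list's counts.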

Additional observations from a re-analysis of the deposited data

How the results depend on the processing

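Over 14 alternatives (13 for Sult1e1, which a filter at 5 FPKM removes), Sult1b1, Sult1c2, Sult1e1, Sult5a1 and Papss1 kept the direction of their difference. Without 1 library each, the log2 difference of Sult1d1 ran from -0.043 (turned, without UAB126 replicate 2) to 0.53, that of Sult2a8 from -0.17 (turned, without Vehicle replicate 2) to 0.19, with a turn also without UAB126 replicate 1 (-0.10), and that of Papss2 from -0.48 to 0.28, turned without Vehicle replicate 2 (0.12) and without UAB126 replicate 1. Papss2 also turned with quantile normalization (0.25). The count of symbols past the threshold, 15 (5 higher and 10 lower), was 27 with a pseudocount of 0.1 (12 and 15), 0 with no filter (limma, 1764 at an unadjusted p under 0.05), 24 with quantile normalization (12 and 12), 24 with median ratio scaling (10 and 14), 29 with the length trend removed (16 and 13), and 0 to 442 without 1 library each (442, 108 higher and 334 lower, without Vehicle replicate 1; 56, 20 and 36, without Vehicle replicate 2; 14, all of them higher, without UAB126 replicate 1; and 0, with 737 at an unadjusted p under 0.05, without UAB126 replicate 2). In these fits the lone library of a group is assumed to vary like the other group. The cause was not tested. Of the 8 tested members, 0 passed in the main analysis and 0 to 2 without 1 library each: Sult1b1 and Sult1e1 without Vehicle replicate 1, and Sult1e1 without Vehicle replicate 2. With the replicate number as a block, 148 symbols (38 higher and 110 lower) and 2 members passed, Sult1b1 (limma adjusted p = 0.0498) and Sult5a1 (limma adjusted p = 0.0405). The deviations of same-numbered libraries from their group means correlated at 0.18 across symbols, and with 2 pairs the libraries share only a number. The ratio of summed sulfotransferase FPKM, 1.14, was 0.913 with the joint Eif3c and Sult1a1 row included and 2.11 without Sult2a8, both chosen after seeing the data. For Sult1e1 the low values in the UAB126 libraries, 6 and 3 fragments if the smallest whole-number set holds, limit the precision of the fold.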

Other observations

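Sulfatide, a sulfated glycolipid, is made by the Golgi enzyme of Gal3st1 and broken down by arylsulfatase A, the product of Arsa. Gal3st1 measured 1.99 and 1.30 FPKM on the diet alone against 0.380 and 0.416 FPKM on the diet with UAB126, differing on the log2 scale by -0.91 ± 0.25 (limma adjusted p = 0.276). Arsa was at 23.1 and 14.99 against 31.8 and 31.3 FPKM, which differ on the log2 scale by 0.73 ± 0.25 (limma adjusted p = 0.331). In both genes the groups did not overlap, in opposite directions, and neither passed the threshold. Sulfatide itself was not measured, and a joint change of these genes was not tested. Gal3st1 passed the filter only through its Vehicle values.

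Of the 23 Golgi sulfotransferase genes, which act on glycans, lipids and tyrosines of proteins, 12 were tested and 0 passed (limma). At an unadjusted p under 0.05 there was 1, against 13.4% of all tested symbols (limma). Both UAB126 libraries were higher in 4 and lower in 1 of the 12, against 22.7% and 26.9% of all tested symbols, with a median log2 difference of 0.14. Ndst2 and Hs6st1, which sulfate heparan chains, had log2 differences of 0.55 ± 0.27 and 0.41 ± 0.24. Of 13 sulfatase genes and their modifying factors, 9 were tested and 0 passed (limma). At an unadjusted p under 0.05 there was 1, against the same 13.4% (limma). Both UAB126 libraries were higher in 1 and lower in 1 of the 9, against 22.7% and 26.9%, and the groups overlapped in 7. Sumf2, which is related to the factor that activates sulfatases, was at 8.03 and 9.68 against 6.12 and 6.89 FPKM.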
